A study of Mus musculus with 22 samples.

Results

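*Fxyd6*, *Kank4*, *Tnfsf15*, *Klhl13*, *Gulp1*, *Map7* (listed under its older symbol, *Mtap7*) and a gene known here only by its identifier, ENSMUSG00000093483.1, were 7 of the 55401 gene identifiers counted in serially passaged mouse embryonic fibroblasts (MEFs). They were chosen by their measured values, for higher counts in MEFs without S6 kinase 1 (*S6K1* KO) or without both S6 kinases (DKO) than in wild-type (WT) MEFs of the same late passage. No threshold of the choice is known here, so how near the values lie to one cannot be said. Every KO-to-WT and DKO-to-WT difference of these genes is therefore given as a description with no test. The comparison of late with early WT MEFs uses the same late WT libraries and is described in the same way. The early WT libraries were not used in the choice, and the early WT groups of both MEF sets were tested against each other. Early and late libraries may come from the same embryos, so that test may not be independent of the choice.

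MEFs are primary cells grown from embryos, which stop dividing as they are passaged. RNA-seq was done on 22 libraries in 6 groups and 2 sets, all of C57BL/6 background. In the *S6K1* set, 4 libraries came from early WT MEFs at passage 3, while 4 from late WT and 3 from late *S6K1* KO MEFs came from passage 8, with WT and KO embryos taken from litters of heterozygous parents. The *S6K1/S6K2* set had the same plan with 4, 4 and 3 libraries, the last 3 of them from late DKO MEFs. DKO embryos came from parents that were S6K1+/- and S6K2-/-, and their WT controls came from other mothers, so that genotype and litter cannot be told apart in that set. The deletions were present in all cells of the embryo from the start. No library came from early KO or DKO MEFs, so a genotype difference already present at early passage and one that arose with passage cannot be told apart. The paper reports that *S6K1* KO and DKO MEFs stopped dividing earlier than WT MEFs, so the same passage need not be the same growth state. The labels do not say which libraries share an embryo or a mother, so a *P* value here measures only the spread between these libraries.

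S6 kinases are activated by mTORC1, the nutrient-sensing kinase complex, and phosphorylate ribosomal protein S6 and other proteins of translation and growth. The 7 genes do not form a pathway. *Fxyd6* encodes a small membrane protein that regulates the sodium-potassium pump, *Kank4* a scaffold at the rim of focal adhesions, and *Map7* a microtubule protein that recruits the motor kinesin-1. *Tnfsf15* encodes TL1A, a TNF family cytokine whose receptor is DR3, the product of *Tnfrsf25*. *Klhl13* encodes an adaptor that brings substrates to the CUL3 ubiquitin ligase, and *Gulp1* an adaptor that acts behind engulfment receptors when a cell takes up apoptotic neighbours.

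The libraries held 10742454 to 17314832 counts on genes, and 3 counts in a library corresponded to 0.173 to 0.279 CPM (counts scaled to a library total of 1000000), a limit that covers counting error only. *Rps6kb1*, which encodes S6K1, stood at 55.0 to 71.8 CPM in late WT and 13.0 to 23.3 CPM in KO libraries, and at 61.5 to 91.9 CPM in late WT and 19.6 to 30.0 CPM in DKO libraries of the other set. *Rps6kb2*, which encodes S6K2, was at 10.7 to 17.0 CPM in late WT and 0.465 to 1.44 CPM in DKO libraries. All 12 fibroblast markers were detected in every group, with *Col1a1* at 2710 to 13000 CPM. All 19 macrophage markers were detected in every group too, and their summed level was 626 to 1480 CPM in early WT, 5830 to 12100 CPM in late WT and 4140 to 5080 CPM in KO libraries. The sum was 889 to 2420 CPM in early WT, 8790 to 14400 CPM in late WT and 1240 to 3790 CPM in DKO libraries of the other set. Y-linked genes were expressed in 12 of 22 libraries, namely in 2 of 4 early WT, 1 of 4 late WT and 3 of 3 KO libraries, and in 2 of 4 early WT, 3 of 4 late WT and 1 of 3 DKO libraries of the other set.

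A total of 6 of the genes have a position in RefSeq's table for GRCm38.p6 (mm10). *Fxyd6* lies at chr9:45369470-45396159, *Kank4* at chr4:98754892-98818058 and *Tnfsf15* at chr4:63724600-63745059. *Klhl13* lies at chrX:23219271-23365161, *Gulp1* at chr1:44551380-44796838 and *Map7* at chr10:20148920-20281590. RefSeq places *Kank4os* within the span of *Kank4*, 1 gene in that of *Tnfsf15*, 3 in that of *Gulp1* and 5 in that of *Map7*, among them *Rpl32l*. None of these was among the genes tested, and because the strand setting of the counting is not given in the sources used here, their reads and those of the genes they overlap cannot be told apart.

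The RefSeq promoter table gave a window for the same 6 genes. Those of *Tnfsf15*, *Map7*, *Klhl13* and *Gulp1* are shown because these 4 genes made up the 3 pairs that varied most closely with each other within groups. The lines give the 100 bases before the annotated start, 5′ to 3′ on the gene's own strand, at chr4:63745060-63745159 (minus strand), chr10:20148820-20148919 (plus strand), chrX:23365083-23365182 (minus strand, the first of 5 windows of that gene) and chr1:44551571-44551670 (plus strand) in GRCm38.p6. The bases shown for *Gulp1* lie within the span of that gene given above, as do most of those for *Klhl13*. The windows of *Fxyd6* and *Kank4* lie within their spans too, so these starts are not the outer ends of the genes. Capitals mark a GC box, GGGCGG on either strand.
Tnfsf15: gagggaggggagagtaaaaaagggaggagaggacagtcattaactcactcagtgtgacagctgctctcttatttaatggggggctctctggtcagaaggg
Map7: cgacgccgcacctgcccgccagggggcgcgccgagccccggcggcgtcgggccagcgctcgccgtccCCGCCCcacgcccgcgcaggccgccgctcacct
Klhl13: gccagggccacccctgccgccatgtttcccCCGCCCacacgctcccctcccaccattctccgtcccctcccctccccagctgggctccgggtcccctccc
Gulp1: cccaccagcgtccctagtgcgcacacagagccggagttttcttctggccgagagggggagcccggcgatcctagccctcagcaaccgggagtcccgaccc

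Over the 250 bases before the start, the windows ranged widely in base composition. *Map7* had 80.4% G and C, more than 98.9% of the 32851 windows of the table, and 47 CpG. *Kank4* followed with 74.8% and *Klhl13* with 68.4%. *Gulp1* had 56.8% and *Fxyd6* 50.4%, on either side of the median of all windows, 52.4%. *Tnfsf15* had 46.8% and 3 CpG, the lowest of the 6. The GC box was found in 3 of 6 windows (*Map7*, *Klhl13* and *Gulp1*, the last one outside the bases shown), against 32.7% of all windows. CCAAT was found in *Fxyd6* alone, against 33.8%. TATAAA (12.4% of all windows), CACGTG (6.02%), TGACGTCA (1.55%) and TGACTCA (4.46%), each searched on both strands, were found in none of the 6. A match is a description of the letters and no motif was shared by all 6 windows.

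In the fit of late *S6K1* KO against late WT MEFs, 0.0425% of the 14132 genes tested passed at a false discovery rate of 5%, and in that of DKO against late WT MEFs 4.78% of 14365 did. All 7 genes passed the filter on low counts in each fit. Every KO library was above every late WT library for 5 of the 7 genes (all but *Fxyd6* and *Kank4*), where 5.29% of all genes tested were separated in this direction. Every DKO library was above every late WT library for 4 of the 7 (*Fxyd6*, *Kank4*, ENSMUSG00000093483.1 and *Klhl13*), where 5.00% of all genes tested were. Since the choice used these values, nothing is read from these counts. The median log2 fold change of the 7 genes was 1.33 in KO and 0.97 in DKO MEFs, beside −0.01 over all genes tested in each comparison. The sizes differed from gene to gene. ENSMUSG00000093483.1 had a large fitted value in both genotypes, *Fxyd6* and *Kank4* their larger one in DKO MEFs, and *Tnfsf15*, *Klhl13*, *Gulp1* and *Map7* their larger one in KO MEFs. Whether the KO and DKO differences of a gene differed was not tested, because both had been used in the choice.

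**Figure D1:**
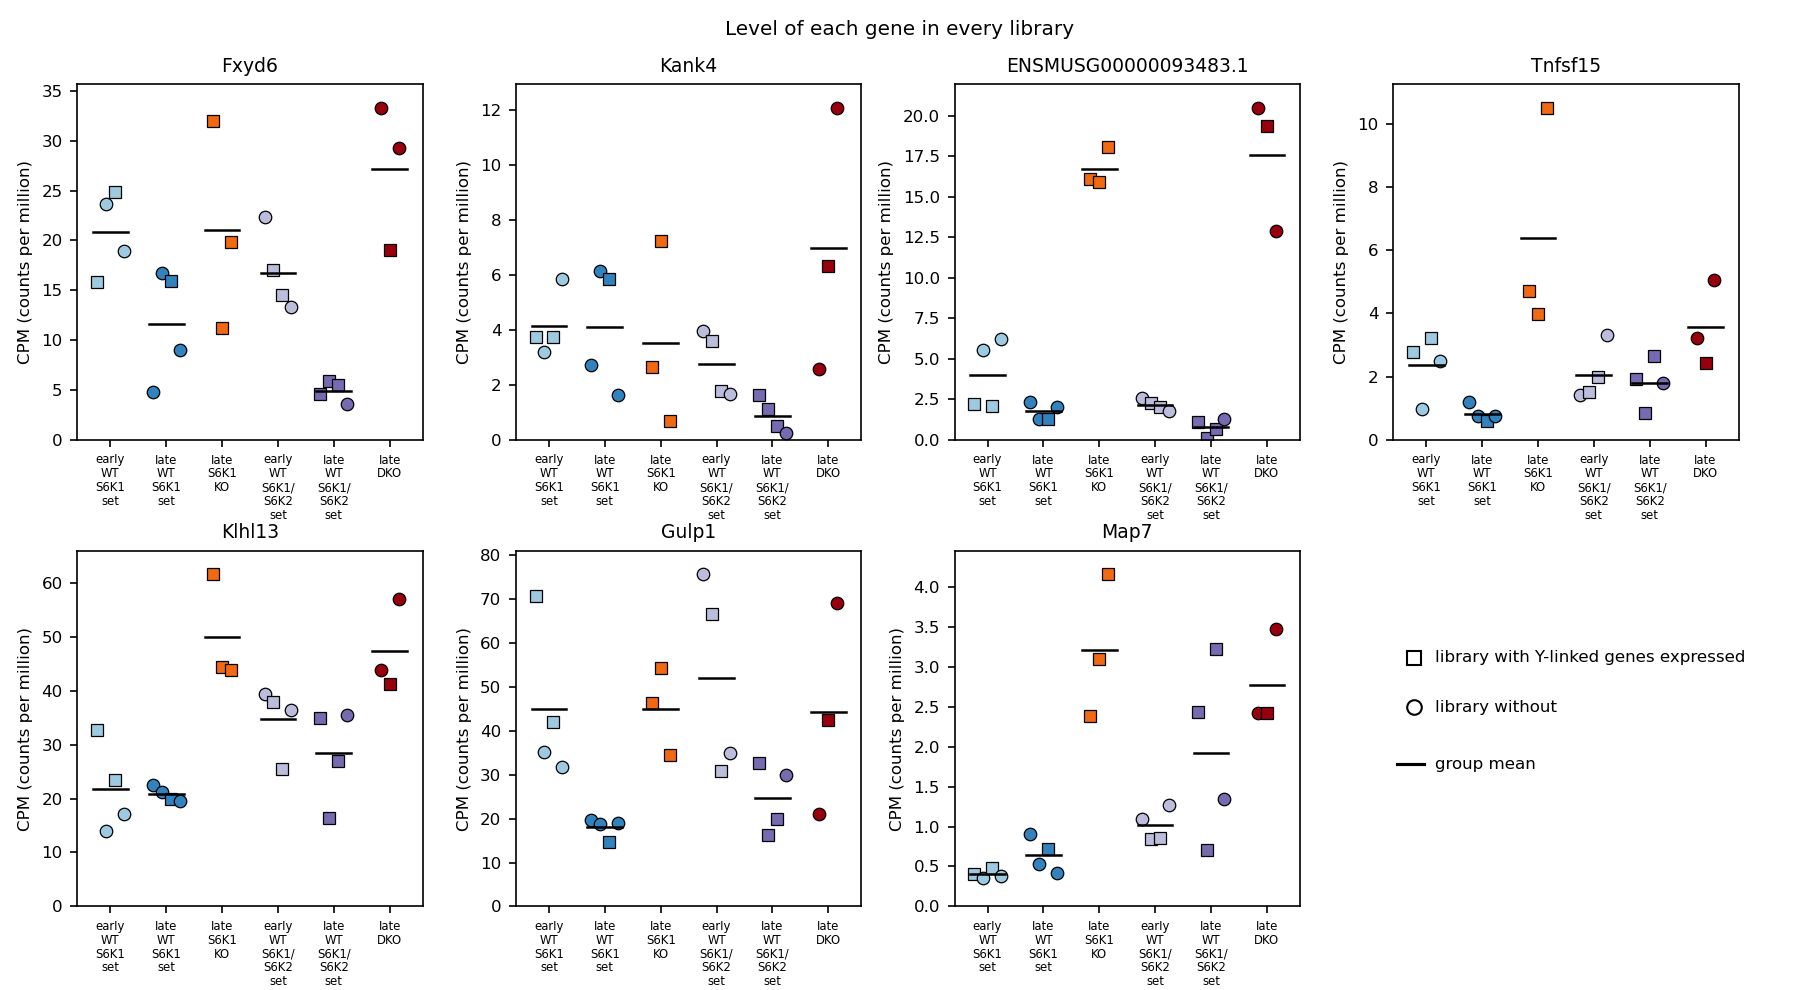
Level of each gene in CPM (linear axis from 0) in the 22 libraries, by group, with squares for libraries that express Y-linked genes, circles for the others and a line at the group mean. ENSMUSG00000093483.1 lies at 12.9 to 20.5 CPM in all KO and DKO libraries and at or below 6.23 CPM in all WT libraries. Klhl13 lies at 41.2 to 61.6 CPM in all KO and DKO libraries and at or below 39.4 CPM in all WT libraries. For the other genes, mutant and WT libraries overlap to different degrees.

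ENSMUSG00000093483.1 had the largest fitted differences of the 7 genes. Its level was 16.1, 15.9 and 18.1 CPM in the 3 KO libraries and 2.35, 1.30, 1.32 and 2.06 CPM in the 4 late WT libraries. It was 20.5, 19.4 and 12.9 CPM in the DKO libraries and 1.13, 0.140, 0.701 and 1.28 CPM in their late WT libraries, the second of which held 2 counts. In both sets the mutant libraries stood apart from every WT library, early ones included. The group means were 16.7 ± 1.22 CPM (SD, n = 3) in KO and 1.76 ± 0.533 CPM (SD, n = 4) in WT MEFs of late passage, 9.51-fold higher in KO MEFs. They were 17.6 ± 4.12 CPM (SD, n = 3) in DKO and 0.811 ± 0.509 CPM (SD, n = 4) in WT MEFs of late passage, 21.7-fold higher. On the log2 scale the fitted difference was 3.27 ± 0.45 (SE) in KO and 4.45 ± 0.43 in DKO MEFs. Without any 1 library these stayed between 3.11 and 3.45, and between 4.12 and 4.73. All KO libraries but 1 of 4 late WT libraries expressed Y-linked genes, and with these genes as a covariate the difference in KO MEFs was 4.21.

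At early passage ENSMUSG00000093483.1 was at 2.19, 5.53, 2.12 and 6.23 CPM in WT MEFs of the *S6K1* set and at 2.57, 2.29, 2.05 and 1.80 CPM in those of the other set. The pair at 5.53 and 6.23 CPM did not express Y-linked genes and the pair at 2.12 and 2.19 CPM did, a split that the early WT libraries of the other set did not show (1.80 and 2.57 CPM without, 2.05 and 2.29 CPM with Y-linked genes). The late WT level was below the early one in both sets, by a log2 fold change of −1.26 ± 0.43 (SE) and −1.33 ± 0.42. In order of the means, the DKO and KO groups overlapped, and both lay above the early WT group of the *S6K1* set.

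The tables used here pair this identifier with no symbol and no position, so nothing is known here of what it encodes. In the deposited table, rows follow genome order for the most part (98.6% of 25873 consecutive named rows on 1 chromosome have a higher start in GRCm38). Its row stands between those of *Slfn14* and *Snord7*, on chromosome 11 and at 3.21 and 3.2 Mb from *Rps6kb1*. Genes of rows nearby differed from each other. *Rasl10b*, a gene of the Ras superfamily 5 rows away, was at a mean of 3.39 CPM in late WT and 8.60 CPM in KO MEFs, a log2 fold change of 1.36 ± 0.25 (SE; edgeR, adjusted *P* = 0.137), and at 6.88 CPM in late WT and 6.69 CPM in DKO MEFs (edgeR, adjusted *P* = 0.969). By DESeq2, and with all 6 groups in the fit, *Rasl10b* passed in KO MEFs. *Ap2b1*, a clathrin adaptor subunit, was at 172 and 170 CPM in late WT and KO MEFs and at 170 and 150 CPM in late WT and DKO MEFs (edgeR, adjusted *P* = 0.992 and 0.456). *AI662270* was lower in DKO than in late WT MEFs, with a log2 fold change of −2.79 ± 0.47 (SE; edgeR, adjusted *P* = 0.00762), and did not pass without DKO library SG62 (−2.58) or SG64 (−2.54). The place of a row was not used to assign a position or a name to the gene.

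*Fxyd6* was at 32.0, 11.2 and 19.8 CPM in KO libraries and at 4.78, 16.7, 15.9 and 8.99 CPM in late WT libraries, so that the ranges overlapped. In the *S6K1/S6K2* set it was at 33.3, 19.0 and 29.3 CPM in DKO libraries and at 4.56, 5.90, 5.47 and 3.56 CPM in late WT libraries. Here every DKO library lay above every late WT library, and the mean was 27.2 ± 7.38 CPM (SD, n = 3) against 4.87 ± 1.04 CPM (SD, n = 4), 5.58-fold higher. The fitted log2 fold change was 2.49 ± 0.24 (SE) in DKO and 0.88 ± 0.41 in KO MEFs. Early WT libraries held 15.8, 23.7, 24.9 and 18.9 CPM in the *S6K1* set and 22.3, 17.0, 14.5 and 13.3 CPM in the *S6K1/S6K2* set. Late WT MEFs were thus the low groups of *Fxyd6*, with a log2 fold change from early passage of −0.87 ± 0.38 (SE) in the *S6K1* set and −1.69 ± 0.23 in the *S6K1/S6K2* set, where the early and late libraries did not overlap. The 4 other groups had means between 16.8 and 27.2 CPM and overlapped with their neighbours in the order of levels.

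*Fxyd2*, the gamma subunit of the sodium-potassium pump, lies 3.55 kb beyond *Fxyd6* on chromosome 9 and went the other way. It fell in DKO MEFs, from 10.6 ± 1.90 CPM (SD, n = 4) in late WT to 1.66 ± 1.05 CPM (SD, n = 3), a log2 fold change of −2.64 ± 0.37 (SE; edgeR, adjusted *P* = 0.00416). With passage *Fxyd2* rose, by 2.58 ± 0.38 (SE; edgeR, adjusted *P* = 0.000953) in the *S6K1* set and 4.09 ± 0.36 (SE; edgeR, adjusted *P* = 9.51e-05) in the *S6K1/S6K2* set. Macrophage markers were higher in late than in early WT MEFs and lower in DKO MEFs, as given above, and their part in the values of both genes was not tested. In bulk RNA, fewer cells of a type and less RNA per cell cannot be told apart.

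*Kank4* was higher in DKO but not in KO MEFs. It was at 2.58, 6.33 and 12.1 CPM in DKO libraries and at 1.63, 1.12, 0.491 and 0.269 CPM in late WT libraries, with no overlap between the groups. The mean was 6.99 ± 4.78 CPM (SD, n = 3) against 0.877 ± 0.617 CPM (SD, n = 4), and the fitted log2 fold change was 2.97 ± 0.59 (SE). KO libraries held 2.66, 7.26 and 0.694 CPM, and late WT libraries of that set 2.73, 6.17, 5.87 and 1.65 CPM. A single KO library was above all of these WT libraries and 1 was below, and the fitted log2 fold change was −0.22 ± 0.62 (SE). It depended on 1 library, since without the KO library at 7.26 CPM it was −1.28. At early passage *Kank4* was at 3.75, 3.19, 3.76 and 5.85 CPM in the *S6K1* set and at 3.98, 3.59, 1.79 and 1.67 CPM in the *S6K1/S6K2* set. Late WT MEFs of the *S6K1/S6K2* set, with as few as 4 counts in a library, were its lowest group and did not overlap with the early WT libraries of that set (log2 fold change with passage −1.55 ± 0.56, SE). In the *S6K1* set the passage difference was −0.06 ± 0.57.

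*Tnfsf15* was the gene with the second largest difference in KO MEFs. The 3 KO libraries were at 4.70, 3.97 and 10.5 CPM and the 4 late WT libraries at 1.21, 0.762, 0.599 and 0.743 CPM, 9 to 16 counts each. All KO libraries lay above all late WT libraries, with means of 6.38 ± 3.57 CPM (SD, n = 3) and 0.83 ± 0.27 CPM (SD, n = 4). The fitted log2 fold change was 2.98 ± 0.48 (SE), and 2.35 without the library at 10.5 CPM. DKO libraries were at 3.23, 2.42 and 5.05 CPM and their late WT libraries at 1.94, 0.843, 2.66 and 1.81 CPM. The groups overlapped, since 1 late WT library was above 1 DKO library, and the fitted log2 fold change was 0.97 ± 0.44 (SE). Early WT libraries of the *S6K1* set were at 2.77, 0.993, 3.22 and 2.48 CPM, above late WT MEFs on average, with a log2 fold change with passage of −1.52 ± 0.46 (SE). In the *S6K1/S6K2* set early WT libraries were at 1.41, 1.5, 1.98 and 3.33 CPM and the passage difference was −0.10 ± 0.41 (SE). *Tnfrsf25*, the receptor gene, stood at 0 to 1.12 CPM and at most 12 counts over all 22 libraries and was in no fit.

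*Klhl13* was higher in both genotypes, with a smaller ratio than *Tnfsf15* in KO MEFs. KO libraries were at 61.6, 44.4 and 43.9 CPM and late WT libraries at 22.5, 21.2, 20.0 and 19.5 CPM, with means of 50.0 ± 10.0 CPM (SD, n = 3) and 20.8 ± 1.35 CPM (SD, n = 4). DKO libraries were at 43.8, 41.2 and 57.1 CPM and late WT libraries at 34.9, 16.4, 26.9 and 35.5 CPM. Neither mutant group overlapped with its late WT group, and the lowest library of either mutant group was also above every WT library of both sets. The fitted log2 fold change was 1.28 ± 0.22 (SE) in KO and 0.75 ± 0.23 in DKO MEFs. Early WT libraries were at 32.7, 14.0, 23.5 and 17.2 CPM in the *S6K1* set and at 39.4, 38.0, 25.4 and 36.5 CPM in the *S6K1/S6K2* set. With passage its log2 fold changes were −0.07 ± 0.20 (SE) and −0.21 ± 0.21. *Klhl13* is X-linked and the groups differed in the share of libraries with Y-linked genes. The late WT library of the *S6K1* set that expressed Y-linked genes was at 20.0 CPM, below the 43.9 to 61.6 CPM of the KO libraries, all of which expressed them, and within the 19.5 to 22.5 CPM of the other late WT libraries. Early WT libraries of the *S6K1* set were split, at 23.5 and 32.7 CPM with Y-linked genes and at 14.0 and 17.2 CPM without. Those of the other set did not show this split, at 25.4 and 38.0 CPM with and at 36.5 and 39.4 CPM without. With the Y-linked genes as a covariate the log2 fold change in KO MEFs was 1.06.

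*Gulp1* was at 46.3, 54.4 and 34.6 CPM in KO libraries and at 19.8, 18.8, 14.6 and 18.9 CPM in late WT libraries. Each KO library thus lay above each late WT library, with means of 45.1 ± 9.96 CPM (SD, n = 3) and 18.0 ± 2.35 CPM (SD, n = 4) and a fitted log2 fold change of 1.33 ± 0.23 (SE). DKO libraries spread from 21.1 over 42.5 to 69.2 CPM and overlapped with their late WT libraries at 32.6, 16.2, 20.0 and 29.9 CPM, with a log2 fold change of 0.84 ± 0.39 (SE). Early WT MEFs held as much *Gulp1* as the mutants. The libraries were at 70.7, 35.3, 42.1 and 31.7 CPM in the *S6K1* set and at 75.7, 66.7, 30.8 and 34.9 CPM in the *S6K1/S6K2* set. Both late WT groups were the low groups, with log2 fold changes with passage of −1.31 ± 0.21 (SE) and −0.98 ± 0.37, and in the *S6K1* set early and late WT libraries did not overlap. The 4 other group means lay between 44.3 and 52.0 CPM, and neighbours in that order overlapped.

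*Map7* was a gene of few counts, 5 to 60 per library. It was at 2.38, 3.10 and 4.16 CPM in KO libraries and at 0.910, 0.534, 0.719 and 0.413 CPM in late WT libraries. The KO libraries were above all late WT libraries, at a mean of 3.22 ± 0.896 CPM (SD, n = 3) against 0.644 ± 0.218 CPM (SD, n = 4), and the fitted log2 fold change was 2.33 ± 0.38 (SE). DKO libraries, at 2.42, 2.42 and 3.48 CPM, overlapped with late WT libraries at 2.44, 0.702, 3.22 and 1.34 CPM, with a log2 fold change of 0.52 ± 0.45 (SE). *Map7* was the only gene of the 7 that was higher in late than in early WT MEFs in both fits, with log2 fold changes of 0.65 ± 0.40 (SE) and 1.01 ± 0.44. Its early WT libraries held 0.404, 0.355, 0.485 and 0.375 CPM in the *S6K1* set and 1.10, 0.849, 0.860 and 1.27 CPM in the *S6K1/S6K2* set. Each of the latter was above each of the former.

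**Figure D2:**
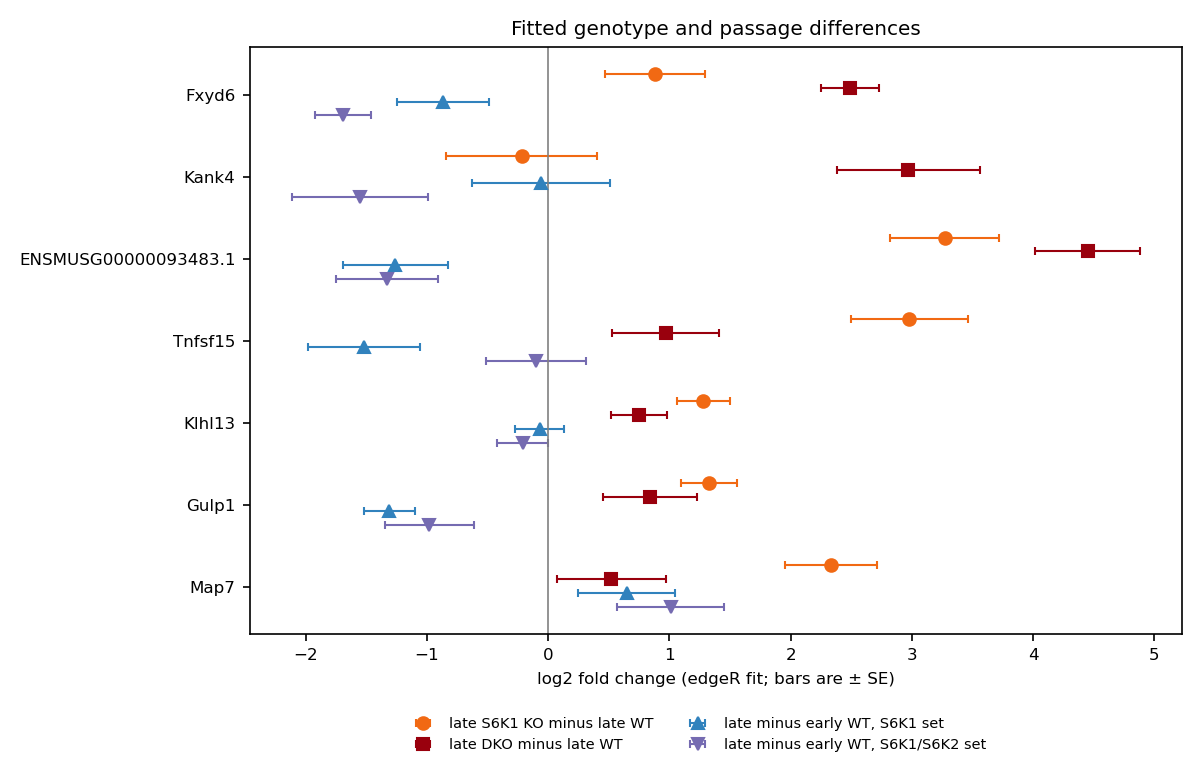
Fitted log2 fold change of each gene (points; bars are ± SE derived from edgeR's F statistic) for late KO and late DKO against late WT MEFs and for late against early WT MEFs of both sets. ENSMUSG00000093483.1 lies farthest to the right for both genotypes, at 3.27 and 4.45, Kank4 lies at −0.22 for KO and 2.97 for DKO MEFs, and 6 of the 7 genes lie to the left of 0 for passage in both sets.

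With passage, the fitted value was below 0 for 6 of the 7 genes in each set, with medians of −0.87 in the *S6K1* set and −0.98 in the *S6K1/S6K2* set, beside −0.04 and 0.01 over all genes tested, of which 12.9% and 13.2% passed a false discovery rate of 5%. The late WT libraries stand in both the passage and the genotype comparison of a set, and the choice of the genes had used them, so these counts are not independent of it and nothing is read from them. Of the 12 values below 0, those of *Klhl13* in the *S6K1* set, *Kank4* in the *S6K1* set and *Tnfsf15* in the *S6K1/S6K2* set were smaller than their SE. All early libraries of the *S6K1* set were above all late WT libraries for *Gulp1*, where 8.63% of all genes tested were separated in this direction. Those of the *S6K1/S6K2* set were for *Fxyd6*, *Kank4* and ENSMUSG00000093483.1, where 9.70% of all genes tested were. For *Klhl13* early and late WT libraries overlapped in both sets.

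Between the early WT groups of the 2 sets, whose libraries were not used in the choice, none of the 7 passed in edgeR's test, beside 0.840% of 14886 genes tested. A total of 3 had an unadjusted *P* value under 0.05, beside 2979 of the 14886 genes tested. By DESeq2 0 of the 7 passed, beside 840 genes in all. *Map7* came nearest, at 1.02 ± 0.202 CPM (SD, n = 4) in the *S6K1/S6K2* set and 0.405 ± 0.0574 CPM (SD, n = 4) in the *S6K1* set, a log2 fold change of 1.22 ± 0.43 (SE; edgeR, adjusted *P* = 0.132) that all 4 libraries shared. *Klhl13* differed by 0.59 ± 0.22 (SE; edgeR, adjusted *P* = 0.146) and was above all 4 libraries of the *S6K1* set in 3 of 4. Without the early WT library SG02 of the *S6K1* set, at 32.7 CPM, it differed by 0.78 and passed. ENSMUSG00000093483.1 differed by −1.03 ± 0.42 (SE; edgeR, adjusted *P* = 0.179). For *Fxyd6* (−0.43 ± 0.33, SE), *Kank4* (−0.73 ± 0.58), *Tnfsf15* (−0.28 ± 0.43) and *Gulp1* (0.12 ± 0.30) the adjusted *P* values of edgeR were 0.483, 0.511, 0.754 and 0.868. A value that missed the threshold does not show that the sets were alike.

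The 7 genes varied with each other to different degrees. Over all 22 libraries Pearson's r of log2 CPM ranged from −0.17 to 0.79 over the 21 pairs, with a median of 0.47. The groups the genes were chosen on add to these values. Within groups, after each group's mean was taken off, the median was 0.06 and the range −0.39 to 0.70. Only 3 of 21 pairs were above 0.5 within groups: *Tnfsf15* and *Map7* at 0.70, *Klhl13* and *Gulp1* at 0.62, and *Tnfsf15* and *Klhl13* at 0.51. *Fxyd6* had no positive value above 0.08 within groups. The points share libraries and their depth, and these correlations are a description with no test.

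**Figure D3:**
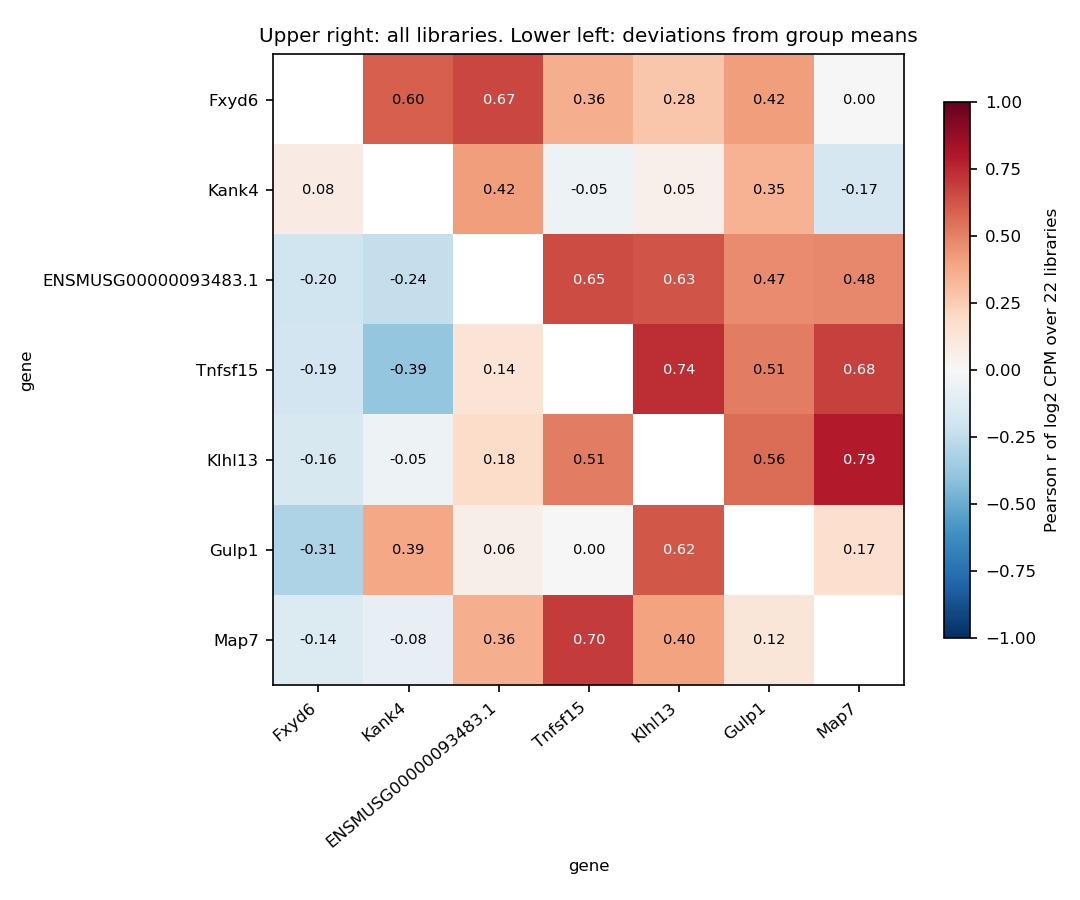
Pearson's r of log2 CPM for each pair of genes over 22 libraries, above the diagonal as measured and below it after each group's mean was taken off. The values above the diagonal reach 0.79, for Klhl13 and Map7, while below it Tnfsf15 and Map7 are highest at 0.70 and most other pairs lie near 0.

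The genes most like each of the 7 were taken by Pearson's r of log2 CPM over all 22 libraries, among 12472 named genes with a mean of at least 1 CPM. For *Klhl13* they were *Ccdc149* (r = 0.92), *Dnajb4* (0.88) and *Nell2* (0.85). For *Kank4* they were *Podn* (0.87), a small leucine-rich proteoglycan gene, *Cmya5* (0.85) and *Fmod* (0.85), the gene of fibromodulin, and these 3 kept r of 0.71 to 0.84 within groups. *Map7* was most like *Alkal1* (0.88), *Tmem151a* (0.88) and *Chmp4c* (0.86), and *Gulp1* most like *Arhgef19* (0.87), *Tns2* (0.87) and *Spock3* (0.86). *Tnfsf15* was most like *Pappa* (0.81), the protease that cleaves IGF-binding proteins, *Vwc2* (0.78) and *Pdgfc* (0.77), which encodes a platelet-derived growth factor. *Fxyd6* had the least close neighbours, *Ednra* (0.74), the endothelin A receptor gene, *Spin4* (0.74) and *Sbspon* (0.72). ENSMUSG00000093483.1 was most like *Cuedc1* (0.82), *Scn7a* (0.80) and *Vezf1* (0.79). *Cuedc1* and *Vezf1* lie on chromosome 11, at 1.55 and 1.52 Mb from *Rps6kb1*, and their r within groups was 0.22 and 0.66. The groups the genes were chosen on add to all values over the 22 libraries. Within groups r was 0.73 to 0.85 for the genes like *Klhl13*, 0.80 to 0.84 for *Gulp1* and 0.58 to 0.67 for *Tnfsf15*. It was 0.55 to 0.68 for those like *Map7*, and 0.64, 0.34 and 0.32 for *Ednra*, *Spin4* and *Sbspon*.

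Mean levels of *Gulp1*, *Fxyd6*, *Tnfsf15* and ENSMUSG00000093483.1 were lowest in the late WT groups, where macrophage markers were highest. Over the 22 libraries, r of log2 CPM with the summed macrophage markers was −0.75 for *Gulp1* and −0.68 for *Fxyd6*, and within groups −0.63 and −0.10. Because the genes were chosen as lower in late WT than in KO or DKO MEFs, the values over all libraries are not independent of the choice. The DKO libraries at 21.1, 42.5 and 69.2 CPM of *Gulp1* had marker sums of 3790, 1380 and 1240 CPM. In KO MEFs, the libraries at 46.3, 54.4 and 34.6 CPM had 4140, 5010 and 5080 CPM, and late WT libraries of that set, at 14.6 to 19.8 CPM of *Gulp1*, had 5830 to 12100 CPM. For the other genes r over all libraries was −0.52 for *Kank4*, −0.42 for ENSMUSG00000093483.1, −0.25 for *Tnfsf15*, −0.13 for *Klhl13* and 0.26 for *Map7*. Within groups it was −0.38 for *Kank4*, −0.28 for ENSMUSG00000093483.1, 0.15 for *Tnfsf15*, −0.20 for *Klhl13* and 0.12 for *Map7*. The median log2 fold change of the 19 markers was −0.87 in KO MEFs, where 0 of 19 passed edgeR's test. In DKO MEFs 18 of 19 fell by that test, with a median of −2.35. The part of macrophage content in the values of the 7 genes was not tested.

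**Figure D4:**
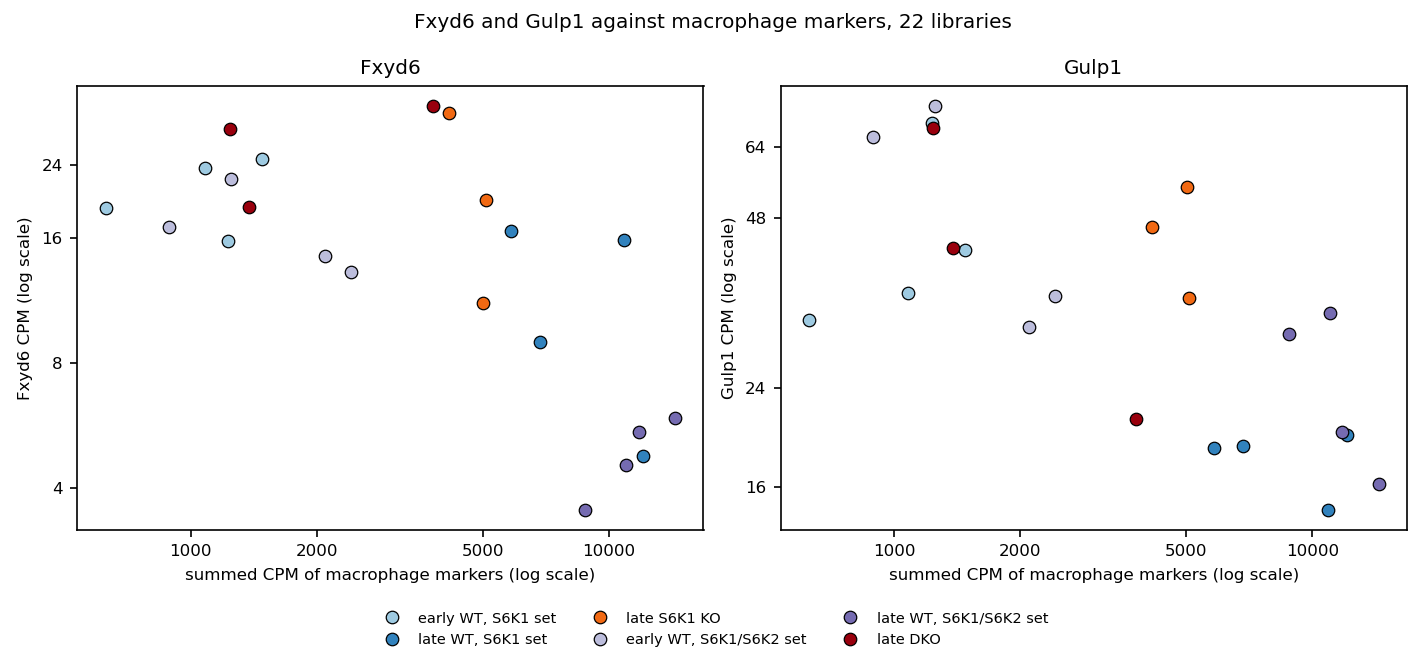
Level of Fxyd6 and Gulp1 in CPM against the summed CPM of 19 macrophage markers (log axes) in the 22 libraries, coloured by group. The late WT libraries of both sets lie to the right, at 5830 CPM of markers and above, with 3.56 to 16.7 CPM of Fxyd6 and 14.6 to 32.6 CPM of Gulp1, ranges that single KO or DKO libraries overlap. Both genes were chosen for lower counts in late WT than in KO or DKO libraries.

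Genes related to the 6 named genes were described from 6 lists, of which 131 of 133 genes had a row and 108 to 111 were tested in a fit. None of 109 list genes passed in KO MEFs by edgeR, with 10 at an unadjusted *P* value under 0.05 and 2 by DESeq2. Over all 14132 genes tested these numbers were 1499 and 266. In DKO MEFs 10 of 108 fell and 0 rose (9.26% called, beside 4.78% of all genes, of whose 686 calls 82.8% were falls), with a median log2 fold change of 0.02. Without DKO library SG62 that number was 2, without SG64 it was 3, and without late WT libraries SG58 or SG59 it was 4 or 6. Of the sodium-potassium pump list, *Fxyd2* and *Fxyd5* were among the genes that fell in DKO MEFs. *Fxyd5* fell by 0.99 ± 0.21 (SE; edgeR, adjusted *P* = 0.02). *Fxyd1*, which encodes phospholemman, was at 0.685 ± 0.975 CPM in late WT libraries (SD, n = 4) beside 5.08 ± 3.31 CPM in DKO libraries (SD, n = 3), with a fitted difference on the log2 scale of 2.86 ± 0.91 (SE; edgeR, adjusted *P* = 0.109) that passed by DESeq2 and without late WT library SG57. Its level was 3.87 ± 4.89 CPM (SD, n = 3) in KO MEFs and 1.01 ± 1.56 CPM (SD, n = 4) in WT MEFs of late passage, a log2 fold change of 1.91 ± 1.18 (SE; edgeR, adjusted *P* = 0.606) that was 0.10 without KO library SG25 and 4.06 without late WT library SG19. Of the 14 genes of the KANK list 0 passed in either genotype by edgeR or DESeq2. In each genotype 3 had an unadjusted *P* value under 0.05, beside 1499 of 14132 genes in KO and 2643 of 14365 in DKO MEFs. *Kank1* was at 0.76 ± 0.31 (SE) in KO and 1.08 ± 0.41 in DKO MEFs and *Kank2* at 0.01 ± 0.15 and 0.30 ± 0.11.

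Of 29 TNF ligands and receptors tested, 2 fell in DKO MEFs, both of them ligands. *Tnf* fell by 2.20 ± 0.51 (SE; edgeR, adjusted *P* = 0.031) and *Tnfsf13b*, which encodes the B cell factor BAFF, fell by 2.42 ± 0.52 (SE; edgeR, adjusted *P* = 0.0228). Of 24 genes of the BTB-Kelch and CUL3 ligase list 1 fell in DKO MEFs, at −1.02 ± 0.22 (SE; edgeR, adjusted *P* = 0.0216). It was *Aurkb*, the mitotic kinase that the KLHL9 and KLHL13 ligase acts on, which is not itself a ligase gene. *Klhl9* was at 0.15 ± 0.18 (SE) in KO and 0.38 ± 0.17 in DKO MEFs, and *Cul3* at 0.39 ± 0.17 and −0.03 ± 0.14. Of 19 engulfment genes 3 fell in DKO MEFs, the receptor *Stab1* (−2.48 ± 0.59, SE), the signalling protein *Elmo1* (−1.80 ± 0.34) and the receptor kinase *Mertk* (−0.84 ± 0.17), with adjusted *P* values of 0.0378, 0.0129 and 0.0171 by edgeR. *Lrp1*, the receptor that binds *Gulp1*, was at −0.28 ± 0.19 (SE) in KO and 0.12 ± 0.15 in DKO MEFs. Of 15 genes of the MAP7 and kinesin-1 list 1 fell in DKO MEFs, *Klc4*, a kinesin light chain, with a log2 fold change of −0.71 ± 0.17 (SE; edgeR, adjusted *P* = 0.0377), while *Map7d1* was at −0.11 ± 0.12 and *Kif5b* at 0.03 ± 0.22. As given above, leaving out 1 library lowered the calls among list genes in DKO MEFs to as few as 2, so most of these falls depended on single libraries. Macrophage markers moved in the same comparison, as given above, and their part in these falls was not tested.

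With passage, 10 of 109 list genes rose and 3 fell in the *S6K1* set (11.9% called, beside 12.9% of all genes), and 14 of 108 rose and 4 fell in the *S6K1/S6K2* set (16.7% called, beside 13.2%), the latter 8 called without early WT library SG46 or SG47 and 9 without late WT library SG58. *Stab1* and *Elmo1* rose in both sets, by 2.54 ± 0.25 (SE; edgeR, adjusted *P* = 6.12e-05) and 1.91 ± 0.27 (SE; edgeR, adjusted *P* = 0.000694) in the *S6K1* set. All 19 macrophage markers rose by edgeR's test in both sets too, with medians of 2.94 and 2.43, and their part in these rises was not tested. *Erc1*, a member of the cortical complex at adhesions, fell in both, with log2 fold changes of −0.69 ± 0.16 and −0.73 ± 0.19 (SE; edgeR, adjusted *P* = 0.0162 and 0.0266). Between the early WT groups 1 of 111 list genes passed (0.901% called), *Abca1*, a lipid transporter, which was higher in the *S6K1/S6K2* set by 0.86 ± 0.18 (SE; edgeR, adjusted *P* = 0.0233).

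**Figure D5:**
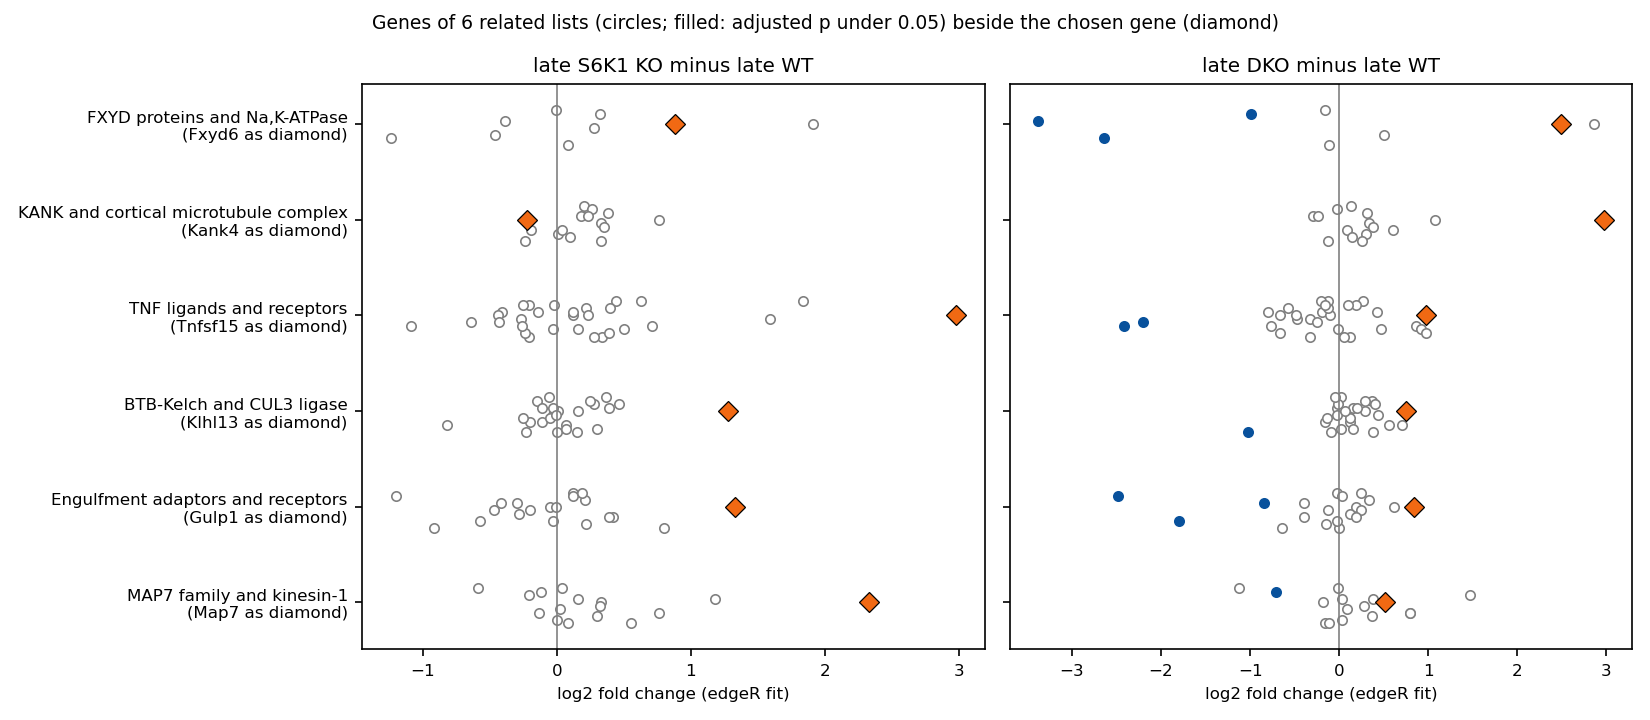
Fitted log2 fold changes of the tested genes of 6 related lists (circles, filled where the adjusted P value was under 0.05) beside the chosen gene of that list (diamond) in late KO and late DKO against late WT MEFs. No circle is filled for KO MEFs, and the 10 filled circles for DKO MEFs all lie below 0.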

How the data were processed

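The values are raw counts of reads per gene, as deposited by the authors, with no normalization, for 55401 gene identifiers in 22 libraries of serially passaged MEFs. According to the paper's methods, the authors made libraries of mRNA with a stranded kit, read them from a single end, mapped the reads to mm9 with TopHat and counted them with HTSeq. The submitters' processing notes name STAR 2.7.1a, DESeq2 1.28.1, CASAVA and mm10 instead. Of the identifiers, 22812 are absent from the mm9 annotation GENCODE vM1, so positions and promoter windows were taken from RefSeq's tables for GRCm38.p6 (mm10) and the build of the counts stays uncertain. The annotation release, the strand setting and the treatment of reads shared between genes are not given in the sources used here. A table of symbols named 32589 of the identifiers.

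Groups were taken from the labels. CPM were counts scaled to a library total of 1000000. In R 4.3.3, edgeR 4.0.16 (filterByExpr, TMM scaling, robust quasi-likelihood F test, Benjamini-Hochberg adjustment over all genes tested, threshold 0.05) was fitted to the 3 groups of a MEF set, and to all 6 groups for early WT MEFs between sets. The SE of a log2 fold change was derived as its absolute value divided by the square root of edgeR's F statistic. Correlations used log2 CPM with a prior count of 2. The 30 pairs of libraries within a group differed by a chi-square of at least 21.1 per degree of freedom over genes with 25 counts or more, so none appeared to be a second copy of another. The fit was tested on simulated data. Alternatives were DESeq2 1.42.0, RLE scaling, all 6 groups or only the 2 compared in the fit, omission of the low-count filter, the Y-linked genes as a covariate, TMM-scaled CPM, a prior count of 0.5, Spearman correlation and leaving out each library. The 7 genes and the lists were chosen with earlier results of these data known. Named beside the 7 were the targeted genes, the list genes that passed (at most 4 per list and comparison), a partner or paralog of each gene, and the 3 genes most like each by r. Genes outside that rule, such as those in rows near ENSMUSG00000093483.1 and the lone list gene that passed between early WT groups, are named for their position or as a count of 1, and *Fxyd1* and *Rasl10b* were chosen after their values were seen. A few genes that this rule names are not reported here.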

Additional observations from a re-analysis of the deposited data

How the results depend on the processing

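Under the alternatives that kept all libraries, 82 of the 84 log2 fold changes of the 7 genes in KO and DKO MEFs moved by less than their spread, and no direction changed. With the Y-linked genes as a covariate ENSMUSG00000093483.1 was at 4.21 and *Klhl13* at 1.06 in KO MEFs. With the same covariate the near-zero passage differences of *Tnfsf15* in the *S6K1/S6K2* set (0.01) and *Klhl13* in the *S6K1* set (0.04) changed sign, as did *Klhl9* (−0.11), *Map7d1* (−0.07) and *Ap2b1* (−0.11, and −0.01 with only both groups compared) in KO and *Cul3* (0.03) and *Rasl10b* (0.04) in DKO MEFs. Leaving out 1 library at a time, *Kank4* ranged from −1.28 to 0.25 in KO MEFs and from −0.34 to 0.25 with passage in the *S6K1* set, *Tnfsf15* from −0.40 to 0.24 and *Klhl13* from −0.22 to 0.16 with passage, and *Gulp1* from −0.09 to 0.35 between early WT groups. *Kank2* (−0.06 to 0.06), *Ap2b1* (−0.10 to 0.07) and *Kif5b* (−0.10 to 0.27) in KO and *Rasl10b* (−0.14 to 0.15), *Cul3* (−0.15 to 0.09), *Kif5b* (−0.06 to 0.30) and *Lrp1* (−0.02 to 0.22) in DKO MEFs also crossed 0.

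Counts of calls moved more. With DESeq2, 266 genes in all passed in KO MEFs, 1206 in DKO MEFs, 2845 with passage in the *S6K1/S6K2* set and 840 between early WT groups, and 2 list genes in KO MEFs and 21 with passage in the *S6K1* set. Without a filter 43 genes and 1 list gene passed in KO MEFs. With the Y-linked covariate 51 genes passed in KO MEFs, and 3301 genes and 24 list genes with passage in the *S6K1* set. With all 6 groups in the fit 16 genes passed in KO MEFs and 20 list genes with passage in the *S6K1* set, and with only both groups compared 16 genes passed between early WT groups. Without 1 library, calls over all genes ranged from 2 to 9 in KO MEFs, 97 to 783 in DKO MEFs, 1223 to 1749 and 885 to 2247 with passage, and 27 to 1497 between early WT groups, list genes from 2 to 12 in DKO MEFs, 10 to 15 and 8 to 19 with passage, and the 7 genes from 0 to 1 between early WT groups. The causes were not tested. With Spearman correlation, of the 3 genes most like each of the 7, 0 remained for ENSMUSG00000093483.1, *Gulp1* and *Map7*. No paired analysis was possible because the library numbers are not shared between groups. Groups of 3 and 4 libraries and the 2 to 60 counts behind *Map7* and the late WT values of ENSMUSG00000093483.1 limit the precision.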
